A study of Mus musculus with 6 samples.

Results

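The genes described here are 36 of the 40205 genes in the deposited mouse count table, chosen by name because they build or regulate cholesterol and fatty acids. They comprise 18 enzymes of sterol synthesis, 11 enzymes of fatty acid synthesis and remodelling, 5 regulators of the SREBP transcription factors and 2 genes of sterol transport. All 36 passed the filter on low counts, as did 21043 genes in all. The 36 were chosen with earlier results of these data known.

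The cells were 4T-1, a mouse mammary carcinoma line used as a model of triple-negative breast cancer, and their mRNA was sequenced to ask what changes when EZH2 is made hyperactive. Y641-F cells (3 libraries) carried a retroviral EZH2 with a tyrosine of its catalytic domain replaced, labelled Y641-F, and their genotype is given as Y641 mutated. Control cells (3 libraries) carried the empty MSCV retrovirus, and their genotype is given as WT. EZH2 is the catalytic subunit of PRC2, the complex that places the repressive mark H3K27me3. The libraries of a group are described as different batches of stably transduced cells, and whether each batch came from its own transduction is not given in the sources used here. The study's methods name puromycin selection for all lines in one sentence, and hygromycin for Y641-F cells and puromycin for Control cells in another. If the drugs differed, their effect and that of EZH2 Y641-F cannot be told apart.

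Cells make cholesterol from acetyl-CoA through mevalonate, isoprenoid diphosphates and squalene, and squalene is then oxidised, closed into lanosterol and trimmed to cholesterol. The transcription factor SREBP-2, encoded by Srebf2, switches on most of these enzymes, while SREBP-1, encoded by Srebf1, acts more on fatty acid synthesis. Both are held in the endoplasmic reticulum with their escort SCAP by the INSIG proteins as long as sterols are plentiful, and are released and cut when sterols run low. Abundant sterols also activate LXR, which turns on cholesterol exporters such as Abca1. Tumour cells are known to draw on both branches for new membrane.

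The promoters of 5 sterol enzymes are printed so that the letters near their starts can be read beside the expression values. Hsd17b7, Idi1, Cyp51 and Ebp had the largest increases among the sterol enzymes, and Hmgcs1, which did not pass the test, is set beside them as the sole one of the 29 genes with a promoter entry to hold an exact sterol regulatory element. Each runs 5′ to 3′ on the gene's strand from 200 bases before the RefSeq start to 20 bases after it, in build GRCm38.p6. They lie at chr1:169969186-169969405 (minus strand), chr13:8885406-8885625 (plus), chr5:4104678-4104897 (minus), chrX:8193493-8193712 (minus) and chr13:119690151-119690370 (plus) in the order printed. Capitals mark, on either strand, CCAAT (the box bound by NF-Y), GGGCGG (the GC box bound by Sp1), CACGTG (an E-box) and TCACNCCAC (a sterol regulatory element) with at most 1 mismatch.
Hsd17b7: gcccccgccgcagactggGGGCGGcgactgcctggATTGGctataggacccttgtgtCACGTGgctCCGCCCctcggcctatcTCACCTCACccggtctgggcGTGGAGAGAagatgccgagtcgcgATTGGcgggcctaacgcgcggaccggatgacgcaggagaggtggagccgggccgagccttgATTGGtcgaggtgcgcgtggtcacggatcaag
Idi1: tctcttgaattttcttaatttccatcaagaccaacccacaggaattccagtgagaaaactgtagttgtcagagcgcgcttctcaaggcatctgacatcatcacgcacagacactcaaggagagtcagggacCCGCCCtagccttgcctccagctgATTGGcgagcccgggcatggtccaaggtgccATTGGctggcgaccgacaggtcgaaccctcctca
Cyp51: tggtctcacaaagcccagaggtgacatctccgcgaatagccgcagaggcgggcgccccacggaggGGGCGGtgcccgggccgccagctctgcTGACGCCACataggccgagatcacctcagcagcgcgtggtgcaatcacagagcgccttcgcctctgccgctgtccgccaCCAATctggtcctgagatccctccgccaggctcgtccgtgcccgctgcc
Ebp: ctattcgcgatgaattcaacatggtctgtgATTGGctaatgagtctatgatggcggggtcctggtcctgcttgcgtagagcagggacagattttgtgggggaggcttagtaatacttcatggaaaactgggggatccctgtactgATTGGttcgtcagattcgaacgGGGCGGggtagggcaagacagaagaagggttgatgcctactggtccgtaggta
Hmgcs1: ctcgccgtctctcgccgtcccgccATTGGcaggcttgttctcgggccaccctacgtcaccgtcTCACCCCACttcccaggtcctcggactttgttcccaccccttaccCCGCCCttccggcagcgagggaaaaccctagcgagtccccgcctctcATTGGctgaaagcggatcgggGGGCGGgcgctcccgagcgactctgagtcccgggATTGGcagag

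Matches were counted in windows of 300 bases, from 250 before to 50 after the start, which the RefSeq table held for 29 of the 36 genes. A CCAAT box stood in 14 of 15 sterol enzymes (93.3%), in 5 of 8 fatty acid enzymes (62.5%) and in 42.9% of the 12272 protein-coding genes tested that were in the table. A GC box stood in 14 of 15 sterol enzymes, in 3 of 8 fatty acid enzymes (37.5%) and in 63.2% of those protein-coding genes. Both letters together were found in 13 of 15 sterol enzymes (86.7%), in 2 of 8 fatty acid enzymes (25%) and in 24.8% of the protein-coding genes tested. All 7 sterol enzymes with a promoter entry that rose in Y641-F cells held both, as did 5 of the 7 that did not pass the test, so the pair of boxes stood in called and uncalled genes alike. An exact TCACNCCAC was in 1 of the 29 (Hmgcs1, starting at position -137), against 1.35% of protein-coding genes tested, and with 1 mismatch allowed it was in 12 of the 29, against 28.8%. CACGTG was in 7 of the 29 (Hsd17b7, Sc5d, Dhcr7, Scap, Insig1, Abca1 and Elovl5), against 10.8%. These matches describe letters and do not show binding, and no motif overlapped another in the printed windows.

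Over the whole set, 14 of the 36 genes were higher in Y641-F cells, 4 were lower and 18 did not pass the test at an adjusted p under 0.05 (edgeR quasi-likelihood test, Benjamini-Hochberg adjustment over all 21043 genes). Among all genes tested, 31.6% were called, 15.6% higher and 16.0% lower. The set thus had a larger share of higher genes (38.9%) and a smaller share of lower genes (11.1%) than the table as a whole, with a median log2 fold change of 0.14 against -0.01. This background, used throughout, was not matched for expression level. Of its 21043 genes, 14604 reached 1 CPM in 3 libraries, as did every member but Abca1. How far the shares called depend on level was not tested. The libraries of the groups did not overlap for 22 of the 36 genes, beside a background of 44.5% of all genes tested. Most changes were modest, and only Hsd17b7, Acacb and Abca1 moved by at least 1 on the log2 scale. Of the 18 genes called, 13 were also called under each of the 13 alternative settings, and the exceptions were Abca1, Fads2, Fdps, Insig1 and Tm7sf2.

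**Figure D1:**
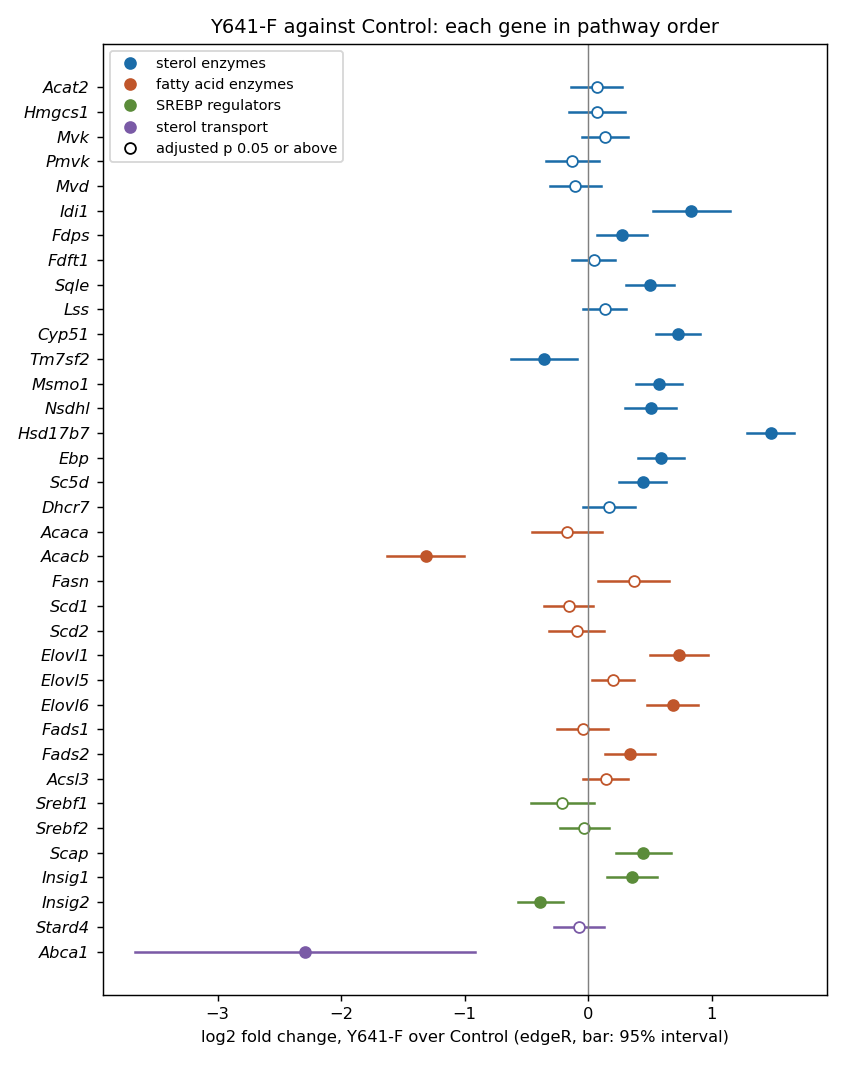
Log2 fold change of Y641-F over Control for each of the 36 genes (horizontal axis), in pathway order from top to bottom. Points are edgeR estimates with 95% intervals, filled where the adjusted p was under 0.05. Hsd17b7 lies farthest right at 1.48, Acacb and Abca1 lie farthest left at -1.32 and -2.29, and most early sterol enzymes lie close to 0.

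The libraries held between 32509268 and 36429035 counted reads, and log2 expression correlated at 0.983 to 0.987 within groups and at 0.968 to 0.974 between them. No pair of replicates agreed within sampling noise (chi-square per degree of freedom 11 to 30.1). Ezh2 had 3686, 3354 and 4196 reads in Y641-F cells, against 3574, 4350 and 3644 in Control cells, a log2 fold change of 0.06 (adjusted p = 0.730), with overlapping groups. Whether reads of the retroviral EZH2 were counted under this gene is not given in the sources used here. The 5 epithelial markers summed to 83613 to 92522 reads in Y641-F libraries and 90812 to 100869 in Control libraries. The 5 haematopoietic markers summed to 196 to 223 reads in Y641-F libraries and 386 to 493 in Control libraries. The 4 fibroblast markers summed to 744 to 1178 in Y641-F libraries and 1138 to 1670 in Control libraries. Nearly all of these were Pdgfra reads, 723 to 1167 in Y641-F libraries and 1123 to 1658 in Control libraries (adjusted p = 0.0792, not called). The 3 endothelial markers summed to 14 to 57 reads in Y641-F libraries and 19 to 37 in Control libraries. The 5 adipocyte markers summed to at most 10 reads in any library, with Lep at 0 in all 6. Krt19, an epithelial keratin, was lower at 123 to 145 CPM in Y641-F cells, against 264 to 305 CPM in Control cells (0.458-fold, adjusted p = 8.28e-06), while the other 4 epithelial markers did not pass the test. Cd68, a macrophage marker that made up most of the haematopoietic reads, was lower at 4.82 to 6.01 CPM in Y641-F cells, against 10.1 to 10.8 CPM in Control cells (0.516-fold, adjusted p = 2.43e-04). The part of these marker differences in the results was not tested.

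More sterol enzymes were higher than lower in Y641-F cells. Of the 18, 9 rose in Y641-F cells, 1 fell and 8 were not called. Their median log2 fold change was 0.22. The groups did not overlap for 12 of the 18, beside 44.5% of all genes tested. The shares were 50% higher and 5.56% lower, beside 15.6% and 16.0% of all genes tested. In bulk RNA a share of the library is measured, so fewer cells making a transcript and less transcript per cell cannot be told apart. Values are given as CPM, counts scaled to a common library size with TMM factors, which correct for differences in library composition.

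None of the first 5 enzymes of the pathway passed the test. Acat2, the cytosolic thiolase that joins acetyl-CoA units, and Hmgcs1, which makes HMG-CoA, each had a log2 fold change of 0.07 (adjusted p = 0.641 and 0.644). Of the 75-base stretches in Acat2 transcripts, 14.7% also occur in other genes, among them Acat3. Hmgcs1 had 175, 144 and 177 CPM in Y641-F cells, against 145, 171 and 156 CPM in Control cells. Its groups overlapped, and its 95% interval of -0.15 to 0.30 on the log2 scale leaves room for a change of either sign. The mevalonate kinase Mvk (0.14), the phosphomevalonate kinase Pmvk (-0.13) and the decarboxylase Mvd (-0.10) had adjusted p of 0.255, 0.362 and 0.448.

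Idi1, the isomerase that interconverts the isoprenoid building blocks, was the first enzyme of the pathway to rise. It had 228, 179 and 270 CPM in Y641-F cells, against 110, 130 and 140 CPM in Control cells. The groups were apart, although the Y641-F libraries were widely spread (226 ± 45.7 CPM in Y641-F cells and 127 ± 15.2 CPM in Control cells, SD, n = 3 each). The rise was 1.78-fold (95% interval 1.44 to 2.21, adjusted p = 8.23e-04). Of the 75-base stretches in Idi1 transcripts, 15.9% also occur in other genes, chiefly its pseudogenes, so part of its count could depend on how such reads were assigned.

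Fdps, which builds farnesyl diphosphate, had the highest level per length among the sterol enzymes in Control cells. Its level was 52.2 CPM per kilobase of exon in Y641-F cells and 43.3 in Control cells. It had 268, 233 and 265 CPM in Y641-F cells, against 201, 218 and 216 CPM in Control cells, without overlap. The difference of 1.21-fold (95% interval 1.05 to 1.39) passed with an adjusted p of 0.0420, and the call was lost on leaving out any single library other than Y641-F replicate 2 (adjusted p 0.0770 to 0.134). Fdft1, the squalene synthase that commits the pathway to sterols, had a log2 fold change of 0.04 (adjusted p = 0.728). Exons of Ctsb on the opposite strand cover 24.8% of its exon bases. Ctsb had 354 CPM in Y641-F cells and 368 CPM in Control cells (log2 fold change -0.06, adjusted p = 0.69).

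From squalene epoxidation onward most enzymes were higher. Splitting the pathway there, a split made after the values were seen, gave 7 higher, 1 lower and 2 not called among the 10 later enzymes, with a median log2 fold change of 0.50. Among the 8 earlier enzymes 2 were higher, none was lower and 6 were not called, with a median of 0.07. Whether the 2 stretches of the pathway differ was not tested.

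Sqle, the oxygen-dependent squalene epoxidase, had 247 to 283 CPM in Y641-F cells and 180 to 191 CPM in Control cells, a 1.41-fold rise (adjusted p = 0.00116). Lss, which closes the ring to lanosterol, was 1.10-fold higher but did not pass the test (adjusted p = 0.245). Cyp51, the P450 that starts the trimming of lanosterol, had 228, 216 and 218 CPM in Y641-F cells, against 133, 136 and 132 CPM in Control cells. Each group was tight and the groups lay far apart, with a 1.65-fold rise (95% interval 1.46 to 1.87, adjusted p = 4.84e-05). Exons of Akap9 and other genes on the opposite strand cover 28.3% of the exon bases of Cyp51, and Akap9 itself had a log2 fold change of -0.05 (adjusted p = 0.880).

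Tm7sf2, a sterol reductase that acts after Cyp51, was the sole sterol enzyme to fall. It had 10.4, 12.6 and 11.2 CPM in Y641-F cells, against 15.6, 15.1 and 13.2 CPM in Control cells. The groups were close but did not overlap, and the level was 0.780-fold (95% interval 0.649 to 0.937, adjusted p = 0.0408). The call was lost without Y641-F replicate 1 or 3 and without Control replicate 1 or 2 (adjusted p 0.0980 to 0.135). Of its exon bases 10.8% are shared with exons of Vps51 on the same strand, whose log2 fold change was -0.16 (adjusted p = 0.170).

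Msmo1, Nsdhl and Hsd17b7 encode the 3 catalytic enzymes that together strip methyl groups from the sterol ring, and all 3 rose. Msmo1, the oxidase, had 255, 253 and 267 CPM in Y641-F cells, against 167, 181 and 174 CPM in Control cells. Nsdhl, the dehydrogenase, had 46.8, 40.1 and 43.1 CPM in Y641-F cells, against 29.3, 32.7 and 29.7 CPM in Control cells. Neither gene had overlapping groups, and the rises were 1.49-fold for Msmo1 (adjusted p = 3.38e-04) and 1.42-fold for Nsdhl (adjusted p = 0.00146).

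Hsd17b7, the ketoreductase of that complex, changed more than any other sterol enzyme. It lies at chr1:169777093-169796813 in GRCm39, on the minus strand. It had 51.7, 49.0 and 54.0 CPM in Y641-F cells, against 17.9, 18.6 and 19.1 CPM in Control cells. The lowest Y641-F library was thus far above the highest Control library, with means of 51.6 ± 2.52 CPM in Y641-F cells and 18.5 ± 0.611 CPM in Control cells (SD, n = 3 each). The rise was 2.78-fold (95% interval 2.44 to 3.18, adjusted p = 5.26e-07). No annotated exon overlaps it on either strand, and none of its 75-base stretches occurs in another gene. Per length it stood at 10.1 CPM per kilobase in Y641-F cells and 3.62 in Control cells, which placed it 27th of the 36 genes in Y641-F cells and 32nd in Control cells.

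Ebp, the isomerase that shifts the ring double bond, had 44.0, 46.4 and 44.4 CPM in Y641-F cells, against 31.5, 28.3 and 29.9 CPM in Control cells. Its groups were well apart, with a rise of 0.59 on the log2 scale, or 1.5-fold (95% interval 1.32 to 1.71, adjusted p = 2.77e-04). Sc5d, the desaturase of the following step, had 112 to 129 CPM in Y641-F cells and 86.0 to 93.1 CPM in Control cells, a 1.36-fold rise (adjusted p = 0.00227). Dhcr7, whose reductase completes cholesterol, overlapped between groups and was not called (log2 fold change 0.17, adjusted p = 0.210).

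**Figure D2:**
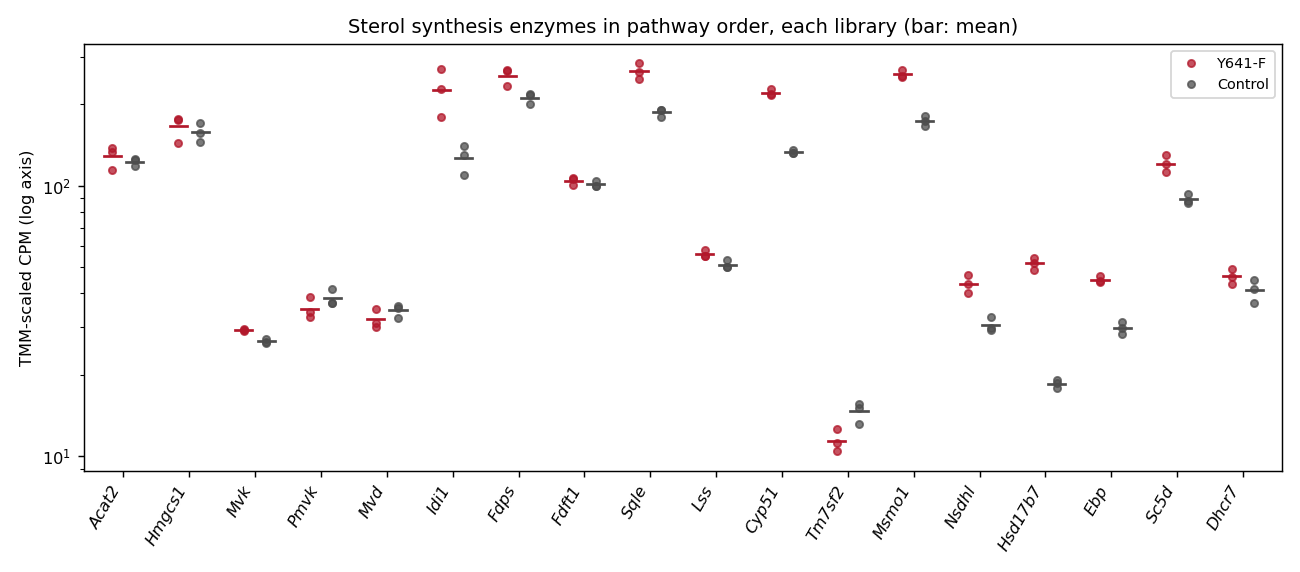
TMM-scaled CPM (vertical log axis) of the 18 sterol enzymes in pathway order, each library a point and each group mean a bar, with Y641-F libraries left of Control libraries. The groups separate for Idi1, Cyp51, Msmo1, Nsdhl, Hsd17b7 and Ebp, Tm7sf2 lies lower in Y641-F cells, and Acat2, Hmgcs1, Pmvk, Mvd, Fdft1 and Dhcr7 overlap.

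The transcripts of the SREBP factors themselves did not pass the test. Srebf2 had 269, 252 and 239 CPM in Y641-F cells, against 275, 257 and 246 CPM in Control cells. These ranges overlapped almost fully, with a log2 fold change of -0.03 (95% interval -0.23 to 0.17, adjusted p = 0.828). Srebf1 had 148, 164 and 132 CPM in Y641-F cells, against 198, 167 and 150 CPM in Control cells. Control replicates 1 and 2 lay above every Y641-F library, and Control replicate 3 lay within the Y641-F range. The log2 fold change was -0.21 (95% interval -0.47 to 0.04, adjusted p = 0.20). Counts per gene do not distinguish the Srebf1 isoforms, nor do they show cleavage of either protein.

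The genes that hold or escort SREBP did pass the test. Of the 5 regulators, 2 were higher, 1 was lower and 2 were not called, beside 31.6% of all genes tested that were called. Scap, the sterol-sensing escort, had 149, 158 and 125 CPM in Y641-F cells, against 111, 106 and 101 CPM in Control cells. Every Y641-F library was above every Control library, and the rise was 1.36-fold (95% interval 1.17 to 1.59, adjusted p = 0.00501). Exons of Ptpn23 and other genes on the opposite strand cover 1280 of its 12774 exon bases, and Ptpn23 had a log2 fold change of 0.02.

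The INSIG genes went in opposite directions. Insig1, an SREBP target as well as a retention factor, had 124, 146 and 125 CPM in Y641-F cells, against 102, 99.7 and 107 CPM in Control cells. Its groups were apart, and the rise was 1.28-fold (95% interval 1.11 to 1.47, adjusted p = 0.0114), with the call lost without Control replicate 2 (adjusted p = 0.0691). Insig2, a retention factor that SREBP does not drive, had 56.2, 54.7 and 55.0 CPM in Y641-F cells, against 67.7, 72.9 and 76.8 CPM in Control cells. The Y641-F libraries were nearly identical and all below the Control libraries, at 0.763-fold (95% interval 0.673 to 0.865, adjusted p = 0.00358). Stated as levels per length, Insig1 stood at 27.0 and Insig2 at 9.32 CPM per kilobase in Y641-F cells, against 21.1 and 12.2 in Control cells.

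Sterol transport was represented by an intracellular carrier and an exporter. Stard4, a cytosolic sterol carrier, had 66.0, 56.5 and 67.5 CPM in Y641-F cells, against 63.5, 65.9 and 70.9 CPM in Control cells. Its groups overlapped (log2 fold change -0.08, adjusted p = 0.585). Abca1, the LXR-driven cholesterol exporter, was close to silent, with 2, 4 and 9 reads in Y641-F libraries, against 12, 37 and 30 reads in Control libraries. All Y641-F libraries were below all Control libraries, and the fitted log2 fold change was -2.29 with a wide 95% interval of -3.66 to -0.92 (adjusted p = 0.0155). The call was lost without Y641-F replicate 1, Control replicate 2 or Control replicate 3 (adjusted p 0.0586, 0.0620 and 0.0517).

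The fatty acid enzymes were divided. Of the 11, 3 rose, 1 fell and 7 were not called. Their median log2 fold change was 0.14 (0.087 without Control replicate 1). The groups did not overlap for 6 of the 11, beside 44.5% of all genes tested. The share called, 36.4%, was near the 31.6% of all genes tested. The shares of 27.3% higher and 9.09% lower stand beside 15.6% and 16.0% of all genes tested.

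Acetyl-CoA carboxylase makes the malonyl-CoA from which fatty acids are built, and its 2 genes were measured at very different levels. Acaca, the cytosolic form, had 99.9 to 148 CPM in Y641-F cells and 133 to 152 CPM in Control cells, and did not pass the test (log2 fold change -0.17, adjusted p = 0.364). Of the 75-base stretches in Acaca transcripts, 24.8% also occur in other genes. Acacb, the mitochondrial outer membrane form whose malonyl-CoA restrains fatty acid import into mitochondria, had 4.82, 4.24 and 3.80 CPM in Y641-F cells, against 10.03, 11.4 and 10.7 CPM in Control cells. The highest Y641-F library had less than any Control library, and the level was 0.401-fold (95% interval 0.323 to 0.499, adjusted p = 3.58e-05), the opposite direction to the other called fatty acid enzymes. Per length Acacb was scarce, at 0.421 CPM per kilobase in Y641-F cells and 1.05 in Control cells, beside 6.996 and 7.88 for Acaca.

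Fasn, the fatty acid synthase, had 716, 512 and 635 CPM in Y641-F cells, against 539, 467 and 438 CPM in Control cells. Y641-F replicate 2 fell below Control replicate 1, so the groups overlapped, and the 1.29-fold difference (95% interval 1.06 to 1.57) narrowly missed the threshold with an adjusted p of 0.0503. It passed under 8 of the 13 alternative settings, with the lowest adjusted p (0.00284) on leaving out Y641-F replicate 2.

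Elongation of the fatty acid chain gave the clearest rises of this branch. Elovl6, which extends palmitate, had 173, 141 and 168 CPM in Y641-F cells, against 101, 100 and 99.3 CPM in Control cells. Control libraries were nearly equal and all Y641-F libraries were above them, with a 1.60-fold rise (95% interval 1.39 to 1.85, adjusted p = 2.17e-04). Elovl1, which extends saturated and monounsaturated very long chains, had 67.1, 80.7 and 61.4 CPM in Y641-F cells, against 44.7, 40.9 and 40.3 CPM in Control cells. That was a 1.66-fold rise without overlap (95% interval 1.41 to 1.95, adjusted p = 2.88e-04). Elovl5, which extends polyunsaturated chains, was 1.15-fold higher and did not pass the test (adjusted p = 0.0728), although its groups did not overlap.

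Of the 4 desaturase genes, 1 passed the test. Scd2, a stearoyl-CoA desaturase, had the highest level per length of all 36 genes, at 199.7 CPM per kilobase in Y641-F cells and 213.1 in Control cells. It had 1603, 1497 and 1409 CPM in Y641-F cells, against 1633, 1602 and 1577 CPM in Control cells, with overlap and a log2 fold change of -0.09 (95% interval -0.32 to 0.13, adjusted p = 0.537). Scd1 (-0.16, adjusted p = 0.218) and Fads1 (-0.05, adjusted p = 0.761), which introduces double bonds into polyunsaturated chains, also did not pass. Fads2, the desaturase of the first polyunsaturated step, did rise. It had 252, 249 and 212 CPM in Y641-F cells, against 190, 186 and 189 CPM in Control cells, a 1.26-fold rise (95% interval 1.10 to 1.45, adjusted p = 0.0164) whose call was lost without Y641-F replicate 1, Control replicate 2 or Control replicate 3 (adjusted p 0.0586, 0.0809 and 0.0505). Acsl3, which loads fatty acids onto coenzyme A, had a log2 fold change of 0.14 (adjusted p = 0.240).

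**Figure D3:**
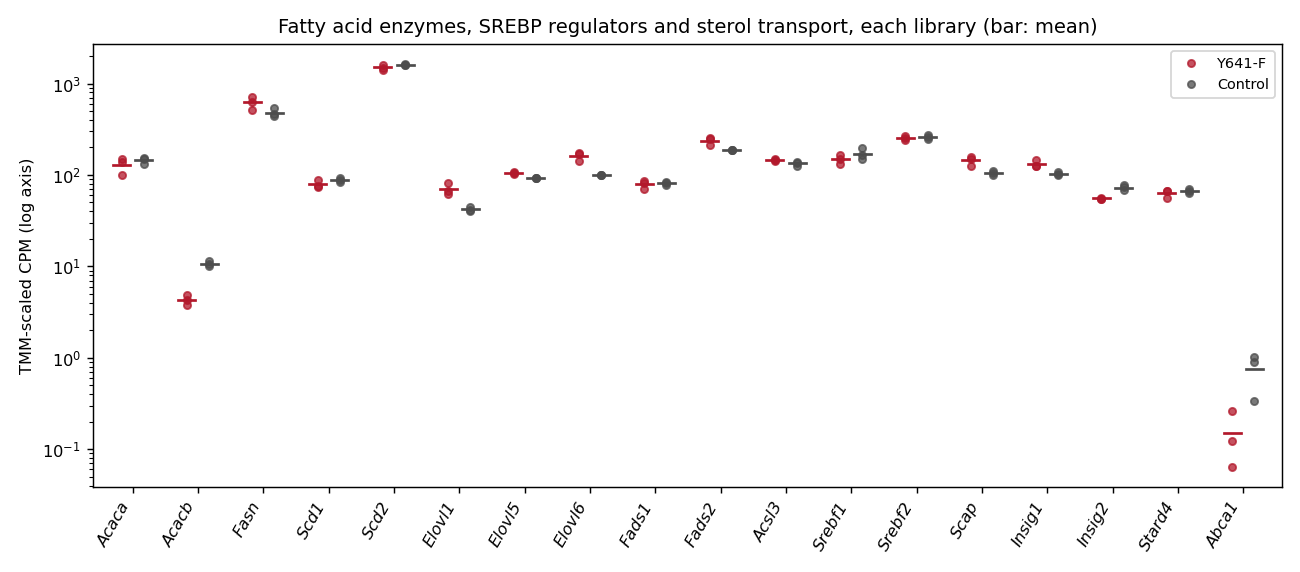
TMM-scaled CPM (vertical log axis) of the 11 fatty acid enzymes, 5 SREBP regulators and 2 sterol transport genes, each library a point and each group mean a bar, with Y641-F libraries left of Control libraries. Acacb and Abca1 sit low and lower still in Y641-F cells, Elovl1, Elovl6, Scap and Insig1 sit higher in Y641-F cells, and Srebf1, Srebf2, Scd2 and Stard4 overlap.

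By level per length, Scd2 led the set in both groups by a wide margin. Idi1 (63.6 CPM per kilobase), Fasn (53.1) and Fdps (52.2) followed in Y641-F cells, with overlapping library ranges. In Control cells Fdps (43.3), Fasn (41.1) and Idi1 (35.7) followed in that order, again with neighbouring ranges that overlapped. Abca1 was last in both groups, at 0.0122 CPM per kilobase in Y641-F cells and 0.0616 in Control cells, with Acacb next to last. Length was taken as all annotated exon bases of a gene, whether or not they were expressed, so ranks between genes here and above depend on the annotation. The 36 genes lie on 16 chromosomes. Exons of genes on the opposite strand overlap 19 of them, covering over 5% of the exon bases in 12, and whether the counting used strand is not stated by the sources at hand.

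Among genes outside the set that control SREBP and the sterol enzymes, more were higher than lower. Of 12 such genes (the processing proteases and the machinery that degrades sterol-regulated proteins), 5 rose, 1 fell and 6 were not called, and the median log2 fold change was 0.13. The shares were 41.7% higher and 8.33% lower, beside 15.6% and 16.0% of all genes tested. Erlin1, part of a membrane complex that binds INSIG and SREBP, had 85.8 to 90.1 CPM in Y641-F cells and 55.9 to 59.8 CPM in Control cells, a log2 fold change of 0.61 (adjusted p = 1.34e-04). Mbtps2, the protease that makes the second cut in SREBP, had 86.3 to 94.6 CPM in Y641-F cells and 68.5 to 72.9 CPM in Control cells (0.37, adjusted p = 0.00438). Faf2, a recruiter of the extraction ATPase (0.36, adjusted p = 0.00826), and Spring1, a licensing factor for the first protease (0.38, adjusted p = 0.0486), were also higher. The Spring1 call was lost under 8 of the 13 alternative settings, among them leaving out any library other than Y641-F replicate 3 (adjusted p 0.0539 to 0.216).

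Among genes of LXR signalling, sterol uptake, storage and traffic, more were lower than higher. Of 17, 1 rose, 7 fell and 9 were not called, and their median log2 fold change was -0.37. The gene that rose was Lpcat3 (log2 fold change 0.28, adjusted p = 0.0195). Among the 9 not called were Nr1h3 (0.67, adjusted p = 0.0831), Abcg1 (-0.51, adjusted p = 0.287) and Mylip (-0.48, adjusted p = 0.0980). The shares were 5.88% higher and 41.2% lower, beside 15.6% and 16.0% of all genes tested. Lrp1, a large endocytic lipoprotein receptor, had 48.1, 31.1 and 47.0 CPM in Y641-F cells, against 183, 130 and 148 CPM in Control cells, at 0.273-fold (adjusted p = 8.62e-06). Vldlr, another lipoprotein receptor, was low in both groups at 0.730 to 1.56 CPM in Y641-F cells and 2.72 to 3.21 CPM in Control cells (log2 fold change -1.32, adjusted p = 0.00385). Stard5, a sterol or bile acid carrier (-0.81, adjusted p = 0.0153), and Nr1h2, which encodes LXR-beta (-0.48, adjusted p = 0.00360), were lower as well. The Stard5 call was lost without Y641-F replicate 3 or Control replicate 2 (adjusted p 0.0532 and 0.106).

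Among 12 enzymes that turn isoprenoid diphosphates into products other than sterols, 3 rose, 1 fell and 8 were not called, and the median log2 fold change was 0.25. The share called, 33.3%, was near the 31.6% of all genes tested. Pdss1, a subunit of the synthase for the coenzyme Q side chain, had 30.8, 36.5 and 34.4 CPM in Y641-F cells, against 19.3, 17.2 and 18.5 CPM in Control cells, a 1.85-fold rise (adjusted p = 4.48e-05). Nus1 and Dhdds, the subunits of the dolichol synthase, moved apart, at 0.38 (adjusted p = 0.00770) and -0.27 (adjusted p = 0.0401) on the log2 scale. Fnta, a shared subunit of the farnesyl and geranylgeranyl transferases, was higher by 0.36 (adjusted p = 0.0181). The Fnta call was lost without Y641-F replicate 3, Control replicate 1 or Control replicate 2 (adjusted p 0.0545 to 0.0816), and the Dhdds call under 6 of the 13 settings, among them without Y641-F replicate 2 or 3 and without Control replicate 1 or 2 (adjusted p up to 0.188).

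Of 25 further genes of fatty acid synthesis and elongation, 21 were tested, and 8 of these rose, 4 fell and 9 were not called, with a median log2 fold change of 0.15. The share higher was 38.1%, beside 15.6% of all genes tested, and the share lower, 19.0%, was near the 16.0% of all genes. The dehydratases of the elongation cycle split, with Hacd1 higher by 0.71 (adjusted p = 3.07e-04) and Hacd4 lower, at 13.1 to 13.8 CPM in Y641-F cells and 26.3 to 28.1 CPM in Control cells (0.5-fold, 95% interval 0.434 to 0.576, adjusted p = 1.28e-05). Acss2, which makes acetyl-CoA from acetate and is a known SREBP target, had 18.5, 15.1 and 16.4 CPM in Y641-F cells, against 26.8, 30.5 and 29.7 CPM in Control cells, at 0.575-fold (adjusted p = 1.48e-04). Mlx, a partner of the carbohydrate-responsive factor ChREBP, was higher by 0.57 (adjusted p = 0.00185), with 51.9% of its exon bases overlapped by genes on the opposite strand.

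**Figure D4:**
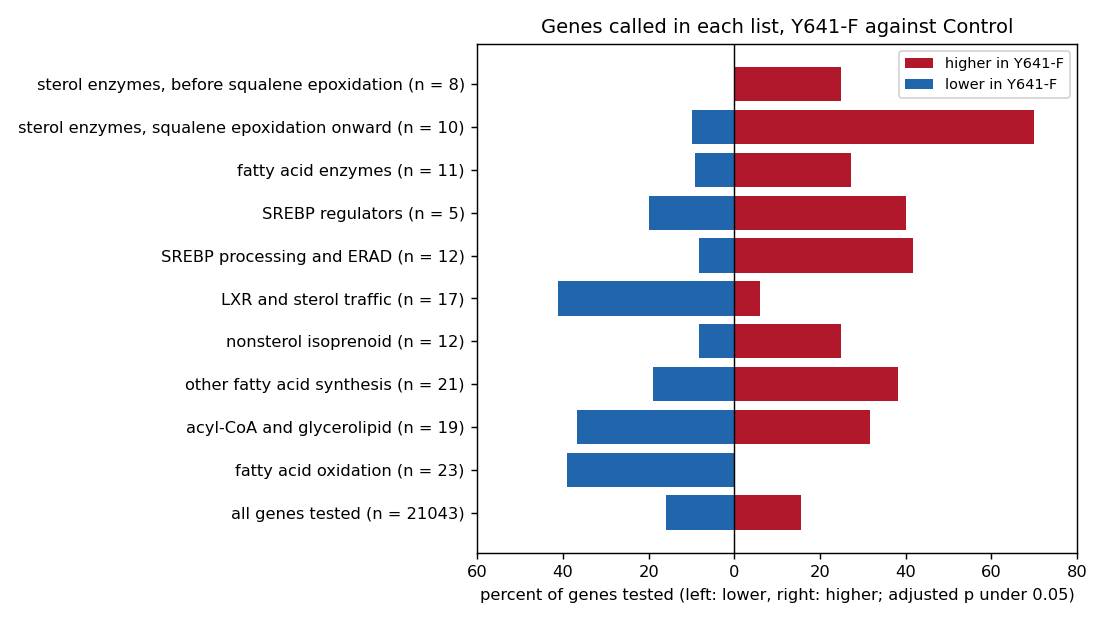
Percent of the tested genes of each list (horizontal axis) that were higher in Y641-F cells (right of 0) or lower (left of 0) at an adjusted p under 0.05, with all 21043 genes tested at the bottom. The later sterol enzymes, split off after the values were seen, reach 70.0% higher, beside 15.6% of all genes. All 18 sterol enzymes together, not drawn as 1 list, had 50% higher. The LXR and sterol traffic list reaches 41.2% lower, beside 16.0%.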

How the data were processed

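Raw counts per gene were deposited by the authors, unnormalized and unfiltered. The submitters' processing notes name STAR 2 and featureCounts 2.0.1 on GRCm39, fastp 0.20.1, MultiQC 1.9, bcl2fastq 2.19.0.316 and FastQC 0.11.9. Neither the annotation nor the strand setting of the counting was given in the sources used here. All sample columns were used (0 left out), and libraries were grouped by their labels.

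The test was run with edgeR 4.0.16 in R 4.3.3. A gene was kept where 3 or more libraries reached 0.1 CPM (19162 of 40205 removed), and libraries were scaled by TMM, both after the study's methods, which do not name the edgeR test. The quasi-likelihood test compared the groups, two-sided, with Benjamini-Hochberg adjustment over all genes kept. Intervals are 95%. P-values measure the spread between batches of cells. Alternatives used other scalings and filters, DESeq2 1.42.0, limma 3.58.1 voom, a replicate block, each library left out, and 1 mismatch in the sterol element. The code was tested on simulated data.

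Gene positions and overlaps were taken from GENCODE vM39 (GRCm39), and promoters from RefSeq (GRCm38.p6), with Python 3.11.15, pandas 2.3.3, numpy 2.4.6 and matplotlib 3.10.9. The members and lists were chosen with earlier results of these data known. Values per library are given for the regulators and transport genes, and, in each enzyme class, for the 6 called members with the largest absolute log2 fold change, the member highest per length and any called against its class. Up to 4 called genes of each neighbouring list are named by the same ranking. Of the LXR and sterol traffic list, the gene called higher and some genes not called are also named.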

Additional observations from a re-analysis of the deposited data

How the results depend on the processing

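Leaving out 1 library at a time gave 4731 to 7328 genes called over all genes, 13 to 19 of the 36 members and 34 to 54 of the neighbouring genes (34, against 52 with all libraries, without Control replicate 2). Sterol enzymes higher ranged from 8 to 9 and lower from 0 to 1, fatty acid enzymes higher from 2 to 4 and lower 1 throughout, and regulators higher from 1 to 2 and lower 1 throughout. The median log2 fold change ranged from 0.20 to 0.25 over sterol enzymes and from 0.0867 (without Control replicate 1) to 0.17 over fatty acid enzymes. The fatty acid enzymes called higher numbered 5 with at least 1 CPM in 3 libraries and 5 with the DESeq2 Wald test, against 3, with Fasn and Elovl5 added. The count of sterol enzymes lower was 0 with the replicate block, where Tm7sf2 had an adjusted p of 0.0518 and Fdps 0.0644. The labels do not say whether the same replicate numbers mark related samples. Correlations of deviations were -0.07, -0.00 and 0.10 between the same numbers, and -0.099 to 0.10 between different numbers. With 3 libraries per group these values cannot decide it, so the block shows only how the counts move. The sign turned, without a call, for Srebf2 (-0.082 to 0.0078 over the libraries left out), where it was 0.0078 without Y641-F replicate 3 and 0.0034 without Control replicate 1, and for Fads1 (-0.10 to 0.038), where it was 0.038 without Y641-F replicate 3. Promoters with the sterol element numbered 12 with 1 mismatch allowed, against 1. Other scalings and filters left the median log2 fold change of all genes between -0.05 and 0.01. The cause of these changes was not tested. Depth limits Abca1, with 2 to 37 reads a library.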

Other observations

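Fatty acid oxidation genes, the catabolic counterpart of the synthesis genes, were lower or not called. Of 23, none was higher, 9 were lower and 14 did not pass the test, with a median log2 fold change of -0.30 (edgeR, adjusted p under 0.05), beside 16.0% of all genes tested that were lower. Cpt1a, which attaches fatty acids to carnitine for import into mitochondria, had 29.9, 28.2 and 29.0 CPM in Y641-F cells, against 63.5, 64.3 and 63.5 CPM in Control cells. The groups were tight and far apart, at 0.455-fold (95% interval 0.403 to 0.514, adjusted p = 1.69e-06). Cpt2, the carnitine transferase on the inner membrane, had 14.1 to 15.8 CPM in Y641-F cells and 28.8 to 31.0 CPM in Control cells, at 0.513-fold (adjusted p = 1.93e-05). The medium and short chain dehydrogenases Acadm and Acads were lower by smaller amounts, at -0.46 (adjusted p = 0.00146) and -0.45 (adjusted p = 0.00286) on the log2 scale.

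Acyl-CoA synthetase and glycerolipid genes were divided, with 6 higher, 7 lower and 6 not called of 19 and a median log2 fold change of -0.09. The shares were 31.6% higher and 36.8% lower, beside 15.6% and 16.0% of all genes tested. Lpin1, a phosphatidate phosphatase that makes diacylglycerol, had 16.1, 14.0 and 14.6 CPM in Y641-F cells, against 33.7, 33.5 and 30.8 CPM in Control cells (log2 fold change -1.13, adjusted p = 7.22e-06), and its relative Lpin3 was lower by a smaller amount (-0.68, adjusted p = 0.00216). Mgll, the monoacylglycerol lipase, had 1.61 to 2.05 CPM in Y641-F cells and 4.18 to 4.36 CPM in Control cells (-1.21, adjusted p = 5.43e-04). Plin3, a lipid droplet coat protein, had 42.6 to 47.3 CPM in Y641-F cells and 77.2 to 78.9 CPM in Control cells (-0.81, adjusted p = 2.13e-05).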
